A study of Mus musculus with 11 samples.

Results

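The small leucine-rich proteoglycans (SLRPs) are secreted matrix proteins whose core is a curved stack of leucine-rich repeats. The 10 SLRP genes described here (Dcn, Bgn, Lum, Fmod, Ogn, Aspn, Prelp, Kera, Epyc and Chad) were a named list, found by gene symbol among the 23420 genes of the deposited count table. They were measured by poly-A RNA sequencing of mandibular condylar fibrocartilage, the tissue that covers the condyle of the jaw joint, in female C57BL/6 mice. Every animal had been ovariectomized at 6 weeks of age, carried a placebo or 17β-estradiol pellet (0.01 mg, with a stated release time of 60 days) for 1 week and was 7 weeks old at harvest. The 4 groups were ERalphaKO mice (KO, lacking estrogen receptor alpha) with estradiol (3 libraries), ERalphaKO with placebo (3), wild type (WT) with estradiol (3) and WT with placebo (2). The knockout allele, the cells that carry it and any pooling of animals are unstated in the labels. Replicates are numbered there without mention of separate animals, and the p-values below therefore refer to the spread between libraries, part of which could be technical.

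SLRPs bind fibrillar collagen and limit the sideways growth of its fibrils, and several also bind growth factors of the TGF-beta family. Most carry glycosaminoglycan chains: decorin (Dcn) and biglycan (Bgn) carry chondroitin or dermatan sulfate, whereas lumican (Lum), fibromodulin (Fmod) and keratocan (Kera) can carry keratan sulfate. The condylar cartilage has a fibrous surface rich in type I collagen over a layer of chondrocytes, and SLRPs occur in both kinds of matrix.

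Libraries held 15.7 to 25.5 M counts, and the 10 genes together took 1.64% to 1.98% of them. Levels below are counts per M of the library total as scaled by TMM (CPM), on which 3 counts in a library, taken as the floor, equal 0.118 to 0.204 CPM. Esr1, which encodes estrogen receptor alpha, stood at 2.55 to 4.86 CPM in KO libraries and 6.43 to 13.4 CPM in WT libraries, without overlap, but these are counts per gene and do not single out the deleted part. The cartilage genes Col2a1 (3706 to 14720 CPM) and Acan (855 to 1800 CPM) were present in every library. Col1a1 stood at 45424 to 77864 CPM, while the tendon genes were low, Scx at 17.1 to 35.1 CPM and Tnmd at 0.165 to 5.04 CPM. Bone markers were present in every library as well. Osteoblast markers summed to 3393 to 4747 CPM and osteoclast markers to 7827 to 12564 CPM. The share of bone in the libraries, and of bone cells in the Col1a1 level, was not tested. Library WT placebo 2 stood apart, with 16.04% of counts from the ribosomal precursor Rn45s against 1.83% to 3.13% elsewhere, and the highest sum of skeletal muscle markers, 953 CPM, against 29.9 CPM in WT placebo 1 and 7.36 to 567 CPM over all other libraries. SLRP differences against the WT placebo group are therefore also given without this library.

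The 10 genes covered a wide range of expression. Divided by exonic length, the mean level over the 11 libraries was 2662 CPM per kb for Bgn and 1778 CPM per kb for Fmod, and neither range overlapped the next gene's. Dcn (1049 CPM per kb) and Lum (936 CPM per kb) followed with overlapping ranges, Dcn being above Lum in 10 of 11 libraries. Aspn, encoding asporin, a relative of decorin without a glycosaminoglycan chain, stood at 356 CPM per kb. Prelp (177 CPM per kb), whose basic end binds heparan sulfate, and Chad (167 CPM per kb), chondroadherin, a cartilage protein that binds integrin, also overlapped, with Prelp above in 7 of 11 libraries. Ogn (osteoglycin) had 29.9 CPM per kb, Kera, best known from the cornea, 4.78 CPM per kb, and Epyc (epiphycan), known from growth plate cartilage, 0.164 CPM per kb. Epyc rested on 1 to 20 counts per library, and at this depth no difference in it was detectable in any comparison. All 10 genes passed the filter on low counts and were tested.

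**Figure D1:**
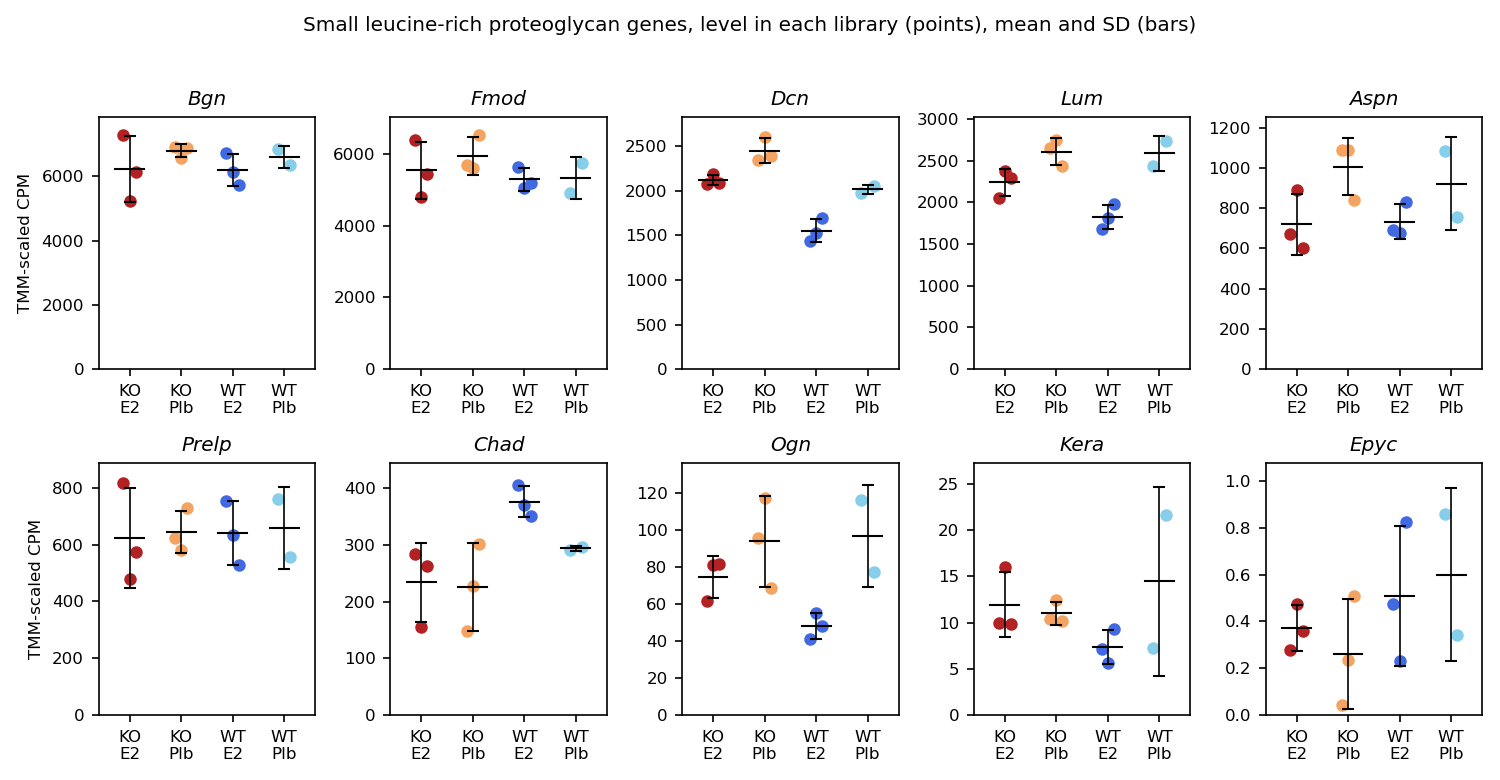
Level of each gene (TMM-scaled CPM, linear axes from 0) in the 11 libraries. Points are libraries, horizontal bars the group mean and vertical bars the SD, with E2 for estradiol and Plb for placebo; Dcn, Lum and Ogn are lower in every WT estradiol library than in any WT placebo library, and Bgn, Fmod and Prelp overlap between all groups.

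The genes lie in clusters. In the RefSeq gene order Dcn, Lum, Kera and Epyc are direct neighbours on chromosome 10, Aspn and Ogn flank their relative Omd on chromosome 13, and Prelp and Fmod are neighbours on chromosome 1, while Chad is on chromosome 11 and Bgn on the X chromosome. Neighbours were not always at like levels. Dcn and Lum stood at 1049 and 936 CPM per kb, whereas Kera, which adjoins Lum, stood at 4.78 CPM per kb. Promoters from RefSeq (GRCm38.p6) were found for 8 of the 10 genes, Dcn and Lum having no entry. Of those 8, Ogn, Kera and Chad had the largest fitted differences between estradiol and placebo in WT tissue. None of them passed edgeR's test there (adjusted p = 0.0750, 0.315 and 0.685), and without WT placebo 2 the log2 difference of Kera was 0.030. They are thus not shown to respond to estradiol. The 250 bases before their start sites are shown, all on the + strand. Capitals mark TATAAA in the gene's direction and GGTCA, an arm of the estrogen response element, on either strand (TGACC when on the other one). The stretches are chr13:49607765-49608014 for Ogn, chr10:97606955-97607204 for Kera and chr11:94564797-94565046 for Chad:
Ogn: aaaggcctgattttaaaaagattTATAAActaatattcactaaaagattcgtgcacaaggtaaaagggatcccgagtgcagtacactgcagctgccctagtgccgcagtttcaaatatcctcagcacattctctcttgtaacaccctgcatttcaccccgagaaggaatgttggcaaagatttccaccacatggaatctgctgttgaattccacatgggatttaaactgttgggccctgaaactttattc
Kera: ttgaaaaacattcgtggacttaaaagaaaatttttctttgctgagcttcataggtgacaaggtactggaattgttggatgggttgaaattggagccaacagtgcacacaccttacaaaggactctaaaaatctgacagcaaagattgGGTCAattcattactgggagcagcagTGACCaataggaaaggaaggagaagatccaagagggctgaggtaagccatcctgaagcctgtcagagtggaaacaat
Chad: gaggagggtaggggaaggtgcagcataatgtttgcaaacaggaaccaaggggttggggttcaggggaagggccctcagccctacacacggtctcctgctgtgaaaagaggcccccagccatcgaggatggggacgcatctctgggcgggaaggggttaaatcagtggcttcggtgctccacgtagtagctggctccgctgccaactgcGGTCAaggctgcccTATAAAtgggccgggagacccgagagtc
The full element GGTCANNNTGACC was in none of the 8 genes' promoters and in 0.0629% of 27025 promoters of that length, 1 a gene. The arm GGTCA was in Kera, which has a copy on each strand starting at bases -103 and -77, in Chad at base -42, and in Prelp and Epyc, against 34.9% of all promoters. TATAAA was in Chad at base -28, in Ogn at base -227 and in Aspn, against 8.12%. The AP-1 motif TGANTCA was in none, against 6.87%. These are matches of letters only, and their use by any factor was not tested.

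Estradiol was first compared with placebo in WT tissue, the setting in which the receptor is present. Lum fell, and no other gene of the 10 passed the test. Lum stood at 1683, 1817 and 1976 CPM in the WT estradiol libraries, against 2439 and 2733 CPM in the WT placebo libraries, so the groups did not overlap. The difference was -0.50 on the log2 scale (SE 0.11, adjusted p = 0.0397 by edgeR's quasi-likelihood test, Benjamini-Hochberg adjusted over 14531 genes), a level 1.42-fold lower. This made 1 of 10 genes called lower, against a background of 0.895% of all genes tested (1.55% in either direction). Of the 10 differences 9 were negative, and the median of the 10 was -0.29 against 0.0023 over all genes. The 9 include Epyc, which rests on few counts, Fmod at -0.0093 and Prelp at -0.043. Without WT placebo 2 the Fmod and Kera differences were 0.11 and 0.030, so the signs do not show a fall of the whole family. All RNA of the tissue was sequenced together, so fewer cells of a type and less RNA per cell cannot be told apart here or below.

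Dcn and Ogn were also lower in each WT estradiol library without passing the test. Dcn stood at 1437, 1523 and 1697 CPM with estradiol, against 1976 and 2051 CPM with placebo (log2 -0.38, SE 0.097, adjusted p = 0.0830 in edgeR). Ogn, a class III SLRP, stood at 41.2, 54.9 and 48.1 CPM with estradiol, against 116 and 77.4 CPM with placebo (log2 -1.01, SE 0.24, adjusted p = 0.0750 in edgeR). Together with Lum and Chad these made 4 of 10 genes whose groups did not overlap, beside 27% of all genes tested. Chad was the gene above 0, at 406, 371 and 352 CPM with estradiol against 291 and 297 CPM with placebo (log2 0.36, SE 0.30, adjusted p = 0.685 in edgeR), and without WT placebo 2 the difference was 0.37.

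For Bgn, Fmod, Prelp and Aspn the intervals in WT included 0. The log2 difference between estradiol and placebo was -0.091 for Bgn (95% interval -0.38 to 0.19), -0.0093 for Fmod (-0.30 to 0.28) and -0.043 for Prelp (-0.54 to 0.46). These became -0.15 for Bgn, 0.11 for Fmod and -0.25 for Prelp without WT placebo 2. Aspn differed by -0.33 (-0.75 to 0.094), a value that moved with single libraries: it was -0.57 without WT placebo 2 and -0.054 without WT placebo 1, and passed in neither. Kera stood at 7.14, 5.61 and 9.32 CPM with estradiol, against 7.21 and 21.7 CPM with placebo (log2 -0.96, SE 0.40, adjusted p = 0.315 in edgeR). Its high value came from WT placebo 2, and without that library the difference was 0.030.

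The Lum result depended on single libraries. Without WT placebo 2 it was -0.42 (adjusted p = 0.158), and the call was also lost without WT placebo 1 (0.0564), WT estradiol 1 (0.153), WT estradiol 2 (0.109), KO placebo 1 (0.0693), KO placebo 2 (0.0608) or KO estradiol 3 (0.0585), and when only the WT groups were fitted (0.140), although the log2 difference stayed between -0.59 and -0.42. Leaving out either WT placebo library leaves 1 library in that group. Without WT placebo 2, Dcn differed by -0.35 and Ogn by -1.27. Without WT placebo 1, Ogn differed by -0.69 and Kera by -1.56. With both placebo libraries kept, Ogn passed without KO placebo 3 (adjusted p = 0.0276 in edgeR) and Dcn without WT estradiol 3 (adjusted p = 0.0381 in edgeR). In the authors' deposited table for WT estradiol over WT placebo 3 of the genes were lower at an adjusted p-value under 0.05. There the authors' deposited table gives log2 fold changes of -0.50 for Lum (adjusted p = 0.00243), -0.38 for Dcn (adjusted p = 0.0380) and -0.99 for Ogn (adjusted p = 7.89e-05).

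In KO tissue no gene of the 10 passed the test for estradiol against placebo, beside 2.73% of all genes. At an unadjusted p under 0.05 there were 3 (Dcn, Lum and Aspn), beside 16.5% of all genes, and DESeq2 called 0. Dcn stood at 2078, 2182 and 2089 CPM in KO estradiol libraries, against 2341, 2605 and 2389 CPM in KO placebo libraries (log2 -0.21, 95% interval -0.40 to -0.019, adjusted p = 0.249 in edgeR). Lum stood at 2055, 2373 and 2290 CPM with estradiol, against 2648, 2741 and 2436 CPM with placebo (log2 -0.22, 95% interval -0.43 to -0.0098, adjusted p = 0.278 in edgeR). These were the 2 of 10 genes whose groups did not overlap, beside 24.8% of all genes tested.

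Aspn had the largest fitted difference of the 10 in KO, at 671, 889 and 601 CPM with estradiol against 1088, 1089 and 842 CPM with placebo. The groups overlapped and the difference of -0.48 (SE 0.17) did not pass (adjusted p = 0.183 in edgeR). Same-numbered KO libraries deviated together, and in each of the 3 pairs Aspn was lower with estradiol; with the replicate block the difference was -0.48 (adjusted p = 0.208 in edgeR). In the authors' deposited table for KO estradiol over KO placebo Aspn was lower at an adjusted p-value of 0.0234 and was the 1 gene of the 10 past 0.05. Ogn stood at 61.4, 81.1 and 81.4 CPM with estradiol, against 95.8, 117 and 68.4 CPM with placebo (log2 -0.33, 95% interval -0.81 to 0.15). The other log2 differences in KO were -0.13 for Bgn, -0.10 for Fmod, -0.048 for Prelp, 0.054 for Chad and 0.11 for Kera, each with an interval that includes 0. Of 12 marker lists, 4 had sums that did not overlap between the pellets in KO. The 6 fibrous layer and tendon markers summed to 55921 to 69548 CPM with estradiol and 73194 to 78251 CPM with placebo, and the 6 osteoblast markers to 3393 to 3886 CPM with estradiol and 3927 to 4747 CPM with placebo, both lower with estradiol as were Dcn and Lum. Nearly all of the fibrous sum was Col1a1, at 55590 to 69278 CPM with estradiol and 72703 to 77864 CPM with placebo. Prg4 was also lower without overlap, while Scx, Mkx, Tnmd and Thbs4 overlapped between the pellets. Muscle sums were 7.36 to 10.1 CPM with estradiol and 63.7 to 567 CPM with placebo, and neutrophil lineage sums 1158 to 4095 CPM with estradiol and 1.40 to 656 CPM with placebo, where 1 library had 2 markers at 0. None of the markers in these 4 lists passed the test. Of the other lists 1 gene passed, the fat marker Plin4, which was lower (log2 -4.98, adjusted p = 0.0260 in edgeR). Plin4 stood at 0.223, 0 and 0 CPM with estradiol against 1.52, 4.92 and 0.849 CPM with placebo, so its log2 value rests on libraries at or near the floor. Of the other fat markers, Adipoq was at 3.41, 19.1 and 7.19 CPM with estradiol against 1.86, 8.96 and 2.34 CPM with placebo. Adipoq and Fabp4 both overlapped between the pellets. The part of these cells in the SLRP values was not tested.

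Whether the response to estradiol differed between the genotypes was tested as an interaction, the WT effect minus the KO effect. None of the 10 genes passed, beside 1.15% of all genes. None had an unadjusted p under 0.05, beside 11.6% of all genes, and DESeq2 called 0. The interaction was -0.28 for Lum (95% interval -0.60 to 0.033, adjusted p = 0.518 in edgeR), -0.17 for Dcn (-0.45 to 0.12, adjusted p = 0.735), -0.68 for Ogn (-1.40 to 0.036, adjusted p = 0.472) and -1.07 for Kera (-2.28 to 0.13, adjusted p = 0.520). For Chad it was 0.30 (-0.60 to 1.21). The fall of Lum in WT tissue was thus not shown to differ from the KO value, since the interval of the difference includes 0. Without WT placebo 2 the interaction was -0.20 for Lum, -0.14 for Dcn, -0.95 for Ogn, -0.082 for Kera and 0.32 for Chad, and none passed.

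**Figure D2:**
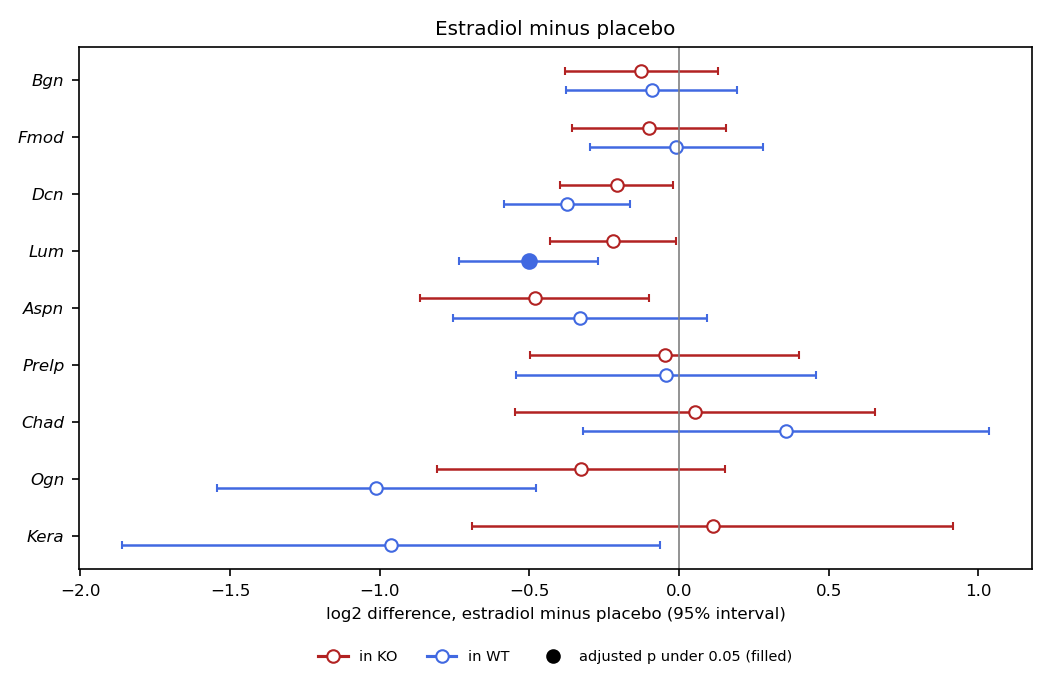
Fitted log2 difference, estradiol minus placebo, in KO (red, upper mark of each pair) and WT tissue (blue, lower mark) with 95% intervals, for the 9 genes other than Epyc. Filled marks have an adjusted p under 0.05; the WT value of Lum, at -0.50, is the filled one, and the WT and KO intervals of every gene overlap.

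KO tissue was then compared with WT tissue under the same pellet. With estradiol, Dcn was higher in KO, at 2078, 2182 and 2089 CPM in KO libraries against 1437, 1523 and 1697 CPM in WT libraries. The 1.36-fold difference (log2 0.45, SE 0.087, adjusted p = 0.00708 in edgeR) made Dcn the 1 gene of 10 called, beside 7.27% of all genes called higher and 11.5% in either direction. Its highest adjusted p over 20 alternatives was 0.0423, reached without WT estradiol 1. Dcn encodes the SLRP best known for binding type I collagen and TGF-beta.

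Lum, Ogn, Kera and Chad did not overlap between the genotypes under estradiol either, making 5 of 10 with Dcn, beside 34.6% of all genes. Lum stood at 2055, 2373 and 2290 CPM in KO libraries against 1683, 1817 and 1976 CPM in WT libraries (log2 0.29, SE 0.097, adjusted p = 0.0708 in edgeR). For Ogn the difference was 0.64 (SE 0.22, adjusted p = 0.0931 in edgeR), with KO libraries at 61.4, 81.1 and 81.4 CPM and WT libraries at 41.2, 54.9 and 48.1 CPM. Kera stood at 9.94, 16.0 and 9.88 CPM in KO against 7.14, 5.61 and 9.32 CPM in WT (log2 0.69, SE 0.37, adjusted p = 0.257 in edgeR). Chad was on the other side of 0, at 285, 155 and 263 CPM in KO against 406, 371 and 352 CPM in WT (log2 -0.68, SE 0.27, adjusted p = 0.140 in edgeR).

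For the remaining abundant genes the intervals of KO against WT under estradiol included 0, with log2 differences of 0.0056 for Bgn (95% interval -0.25 to 0.26), 0.068 for Fmod (-0.19 to 0.33), -0.025 for Aspn (-0.41 to 0.36) and -0.037 for Prelp (-0.48 to 0.41). Ogn passed the test without KO placebo 3 (adjusted p = 0.0440) and when only the estradiol groups were fitted (adjusted p = 0.0217). In the authors' deposited table for KO estradiol over WT estradiol 4 of the genes were higher (Dcn, Lum, Ogn and Kera) and 1 lower (Chad) at an adjusted p-value under 0.05. Chad has a log2 fold change of -0.67 (adjusted p = 0.00227) in the authors' deposited table.

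Under placebo no gene of the 10 differed between KO and WT tissue by the test, beside 0.00688% of all genes, which is 1 gene. At an unadjusted p under 0.05 there was 1 of the 10, Dcn, beside 9.21% of all genes, and DESeq2 called 0. Dcn stood at 2341, 2605 and 2389 CPM in KO placebo libraries against 1976 and 2051 CPM in WT placebo libraries (log2 0.28, 95% interval 0.066 to 0.49, adjusted p = 0.514 in edgeR) and was the 1 gene whose groups did not overlap, beside 27% of all genes. The differences were 0.012 for Lum (-0.22 to 0.25), -0.047 for Ogn (-0.58 to 0.49), -0.38 for Chad (-1.05 to 0.29) and -0.38 for Kera (-1.28 to 0.51). Without WT placebo 2 they were 0.31 for Dcn, 0.099 for Lum, -0.31 for Ogn, -0.36 for Chad and 0.61 for Kera, and none passed.

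Averaged over both pellets, Dcn was higher in KO tissue (log2 0.36, SE 0.066, adjusted p = 0.00805 in edgeR), with 2281 ± 204 CPM in KO (SD, n = 6) and 1737 ± 271 CPM in WT (SD, n = 5). All 6 KO libraries lay above all 5 WT libraries. Dcn was the 1 gene of 10 called, beside 4.59% called higher and 7.36% in either direction, and the 1 whose genotypes did not overlap, beside 5.26% of all genes. Without WT placebo 2 the difference was 0.38 (adjusted p = 0.0286). Lum (log2 0.15, adjusted p = 0.195 in edgeR) and Chad (log2 -0.53, SE 0.20, adjusted p = 0.127 in edgeR) did not pass, nor did they without WT placebo 2 (0.20 and -0.52).

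**Figure D3:**
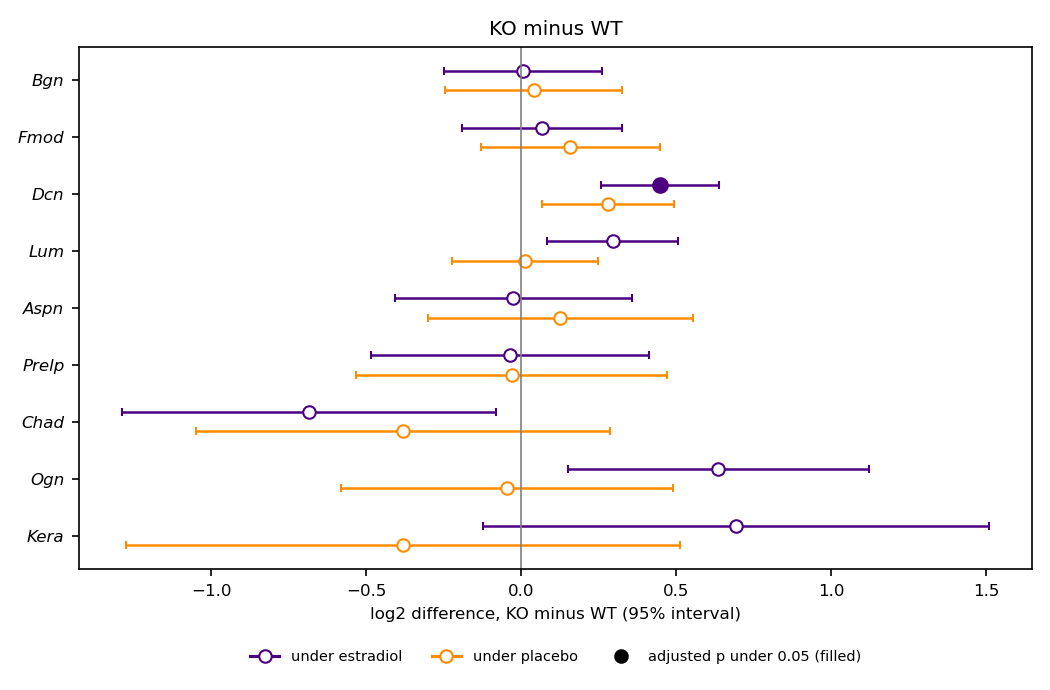
Fitted log2 difference, KO minus WT, under estradiol (purple, upper mark of each pair) and placebo (orange, lower mark) with 95% intervals, for the 9 genes other than Epyc. Filled marks have an adjusted p under 0.05; Dcn under estradiol, at 0.45, is the filled one, and Chad lies below 0 under both pellets.

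Ratios between 2 of the genes in 1 library do not depend on library scaling. They were chosen after the values were seen and are given as a description. The count ratio of Lum to Dcn, which are neighbours on chromosome 10, was 0.989, 1.09 and 1.10 in KO estradiol, 1.13, 1.05 and 1.02 in KO placebo, 1.17, 1.19 and 1.16 in WT estradiol and 1.23 and 1.33 in WT placebo. All 6 KO libraries thus had a lower ratio than any WT library. The ratio of Chad to Fmod was 0.0259 to 0.0483 over the KO libraries and 0.0517 to 0.0736 over the WT libraries, again without overlap. The other 5 of the 7 ratios computed overlapped between the genotypes, among them Dcn to Bgn, at 0.285 to 0.416 in KO and 0.214 to 0.323 in WT, and Dcn to Fmod, at 0.325 to 0.464 in KO and 0.254 to 0.402 in WT. Aspn to Ogn, chromosome 13 relatives, was 16.8, 12.3 and 17.3 in WT estradiol against 9.34 and 9.80 in WT placebo, while KO libraries ranged from 7.38 to 12.3 under both pellets.

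**Figure D4:**
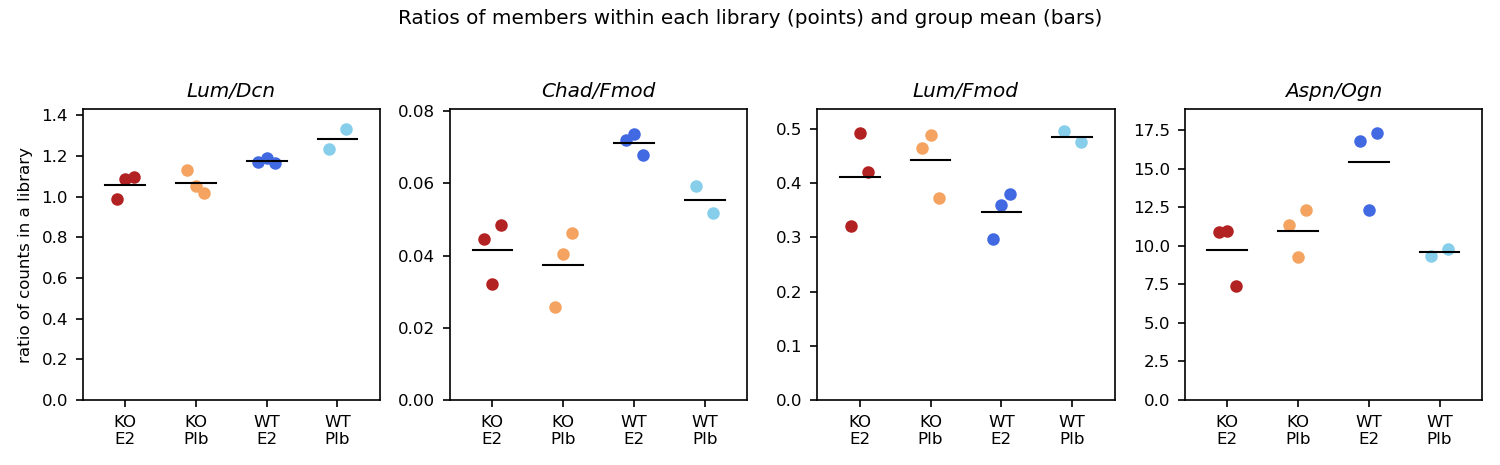
Ratio of counts of 2 SLRP genes within each library (points, linear axes from 0), with the group mean as a bar, for Lum/Dcn, Chad/Fmod, Lum/Fmod and Aspn/Ogn, with E2 for estradiol and Plb for placebo. For Lum/Dcn the KO libraries, up to 1.13, lie below the WT libraries, from 1.16; for Chad/Fmod the KO libraries, up to 0.0483, lie below the WT libraries, from 0.0517.

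Libraries of 1 group differed in the summed level of 7 cartilage markers (Acan, Col2a1, Sox9, Comp, Matn3, Col9a1 and Hapln1), and the SLRPs split by how they ordered with it. The sums ran from 6607 to 15257 CPM in KO estradiol, 6857 to 9960 CPM in KO placebo, 11933 to 21132 CPM in WT estradiol and 11001 to 19511 CPM in WT placebo. Of the 10 pairs of libraries within a group, the one with more cartilage marker also had more Prelp in 10 pairs, more Bgn in 9, and more Fmod and more Chad in 8. It had more Lum in 0 pairs, more Dcn in 1, more Kera in 2 and more Ogn and Aspn in 3. In Prelp the order was identical in all 4 groups, and in Lum it was the exact opposite in all 4. The split was not particular to the cartilage markers. With the fibrous layer and tendon sum, and likewise the hypertrophic cartilage sum, Prelp had 9 pairs, Bgn 8, Dcn 2 and Lum 1. With the neutrophil lineage sum it was reversed, with 2 pairs for Prelp, 1 for Bgn, 9 for Dcn and 8 for Lum. These counts describe 11 libraries, and pairs within a group share libraries, so they are not independent. How many of all tested genes order as strictly was not counted, so the split is not shown to be particular to the SLRPs. The part of the cartilage share in the group differences was not tested. In WT tissue the sums overlapped between estradiol and placebo, and 0 of the 7 markers passed the test in that comparison.

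**Figure D5:**
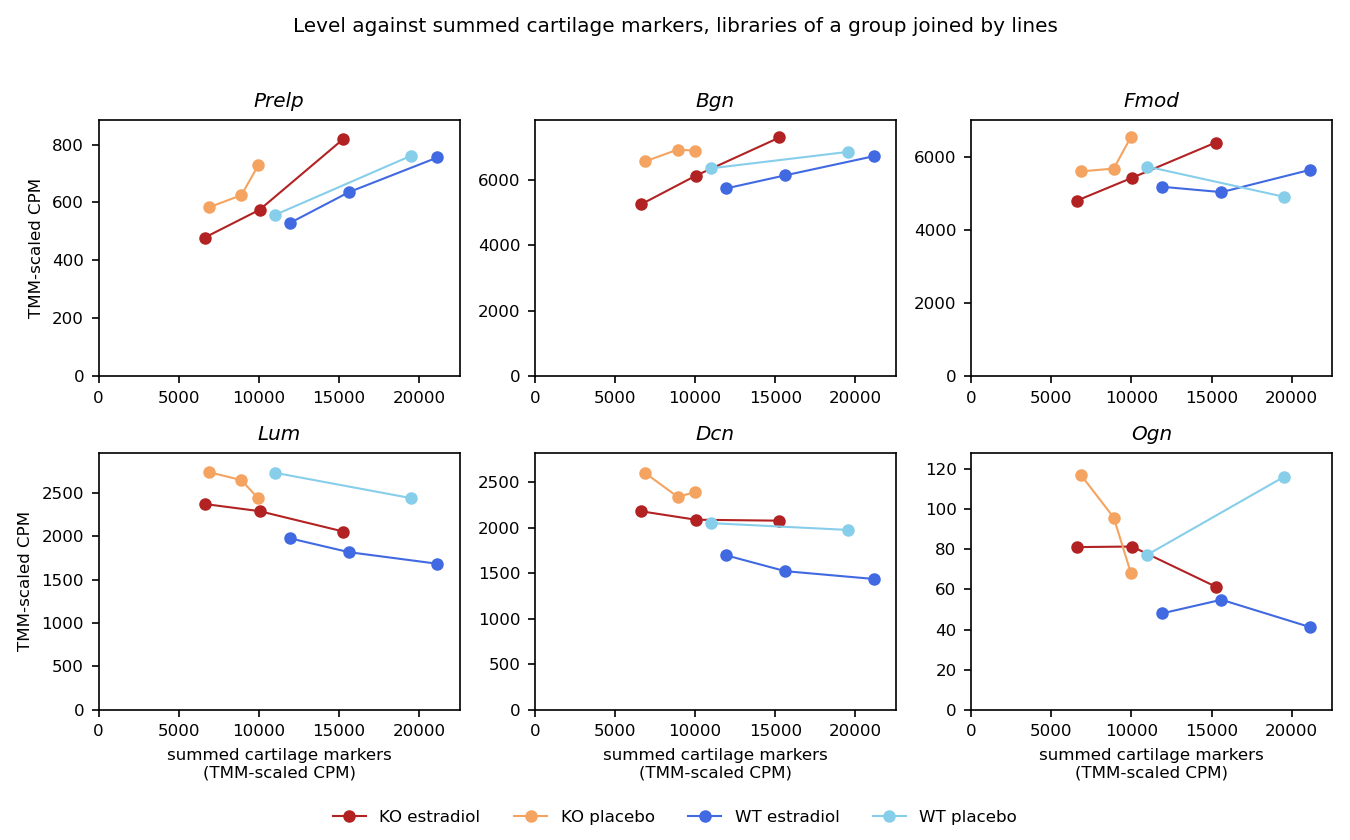
Level of 6 SLRP genes (TMM-scaled CPM) against the summed cartilage markers of the same library (CPM), linear axes from 0, with the libraries of each group joined by lines. Lines for Prelp go up in all 4 groups and lines for Lum go down in all 4, while for Lum and Dcn the WT estradiol line lies below the others.

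Markers of other cells also moved with the groups. The counts called below stand beside 11.5% of all genes between the genotypes under estradiol, and 1.55% for estradiol in WT. In KO against WT tissue under estradiol, the tissue in which Dcn was higher, 6 of 8 neutrophil lineage markers were higher, with sums of 1158 to 4095 CPM in KO and 7.14 to 35.0 CPM in WT, where 1 library had 2 markers at 0. All 7 B lineage markers were higher as well, with sums of 139 to 255 CPM in KO and 2.13 to 4.37 CPM in WT, where 1 library had 1 marker at 0. All 4 hypertrophic cartilage markers were lower, with sums of 3664 to 4537 CPM in KO and 8214 to 9853 CPM in WT, as were all 5 tissue macrophage markers tested (517 to 629 CPM in KO and 824 to 939 CPM in WT) and 4 of 6 osteoclast markers (7827 to 9289 CPM in KO and 12083 to 12564 CPM in WT). None of these libraries had a hypertrophic cartilage, macrophage or osteoclast marker at 0. Of the others 0 of 7 cartilage, 0 of 6 fibrous layer, 0 of 7 muscle and 0 of 3 erythroid markers passed. Lower were 1 of 6 osteoblast and 2 of 5 endothelial markers, and 1 of 3 fat markers was higher. Muscle sums still did not overlap, at 7.36 to 10.1 CPM in KO and 24.2 to 197 CPM in WT. The 7 muscle markers had a median log2 difference of -4.40, against -0.00099 over all genes. Fat sums did not overlap either (7.54 to 32.2 CPM in KO and 2.93 to 5.76 CPM in WT). Nor did endothelial sums (282 to 310 CPM in KO and 347 to 393 CPM in WT). Some libraries had muscle or fat markers at 0. Cartilage, fibrous layer, osteoblast and erythroid sums overlapped. The part of these cells in the Dcn difference was not tested.

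In the WT comparison in which Lum fell, 5 of 7 B lineage markers were lower, with sums of 2.13 to 4.37 CPM with estradiol and 36.6 to 38.7 CPM with placebo. Markers of osteoclasts (2 of 6), endothelium (1 of 5) and hypertrophic cartilage (1 of 4) were higher. The osteoclast sums were 12083 to 12564 CPM with estradiol and 8690 to 10373 CPM with placebo. The sums of hypertrophic cartilage markers (8214 to 9853 CPM with estradiol and 5742 to 6988 CPM with placebo) and endothelial markers (347 to 393 CPM with estradiol and 282 to 340 CPM with placebo) were also higher in each estradiol library than in either placebo library. Within the hypertrophic sum, Ibsp stood at 5842 to 6134 CPM with estradiol and 3429 to 4060 CPM with placebo. Pth1r also did not overlap (796 to 835 CPM against 664 to 791 CPM), whereas Col10a1 and Ihh did. No marker of the other 8 lists passed there, but 4 of those lists had sums that did not overlap. Neutrophil lineage sums were 7.14 to 35.0 CPM with estradiol, where 1 library had 2 markers at 0, and 179 to 430 CPM with placebo, with a median log2 difference of -3.87 over 8 markers, against 0.0023 over all genes. Fat sums were lower as well, at 2.93 to 5.76 CPM with estradiol and 11.04 to 19.5 CPM with placebo. Macrophage sums were higher, at 824 to 939 CPM with estradiol and 619 to 690 CPM with placebo, and so were erythroid sums, at 21.6 to 22.3 CPM with estradiol and 3.34 to 13.1 CPM with placebo. Cartilage, osteoblast, muscle and fibrous layer sums overlapped, the last at 45615 to 60712 CPM with estradiol and 59149 to 77600 CPM with placebo. The part of these cells in the Lum difference was not tested.

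Relatives and partners of the SLRPs were taken from 7 lists. Their calls stand beside shares over all genes of 1.55% for estradiol in WT and 2.73% in KO. Between the genotypes these shares were 11.5% under estradiol and 7.36% in the average. Among 7 tested relatives in the family, Podnl1 (podocan-like 1) fell with estradiol in WT, at 64.8, 63.1 and 69.8 CPM against 116 and 88.0 CPM with placebo (log2 -0.63, SE 0.12, adjusted p = 0.0215 in edgeR). The groups did not overlap, but the call was lost without WT placebo 1 (log2 -0.42, adjusted p = 0.128), WT estradiol 1 (adjusted p = 0.0852) or WT estradiol 2 (adjusted p = 0.0864) and when only the WT groups were fitted (adjusted p = 0.0706), and without WT placebo 2 the difference was -0.82. No other tested relative passed in WT, and none did in KO, between the genotypes under either pellet or in the interaction. Averaged over pellets Ecm2, the neighbour of Aspn, was higher in KO (log2 0.27, adjusted p = 0.0331 in edgeR) and Chadl, a relative of Chad, lower (log2 -0.53, adjusted p = 0.0288 in edgeR). The Ecm2 call held in 11 and the Chadl call in 13 of 19 alternatives. Without WT placebo 2 the adjusted p for Ecm2 was 0.115, and without WT placebo 1 that for Chadl was 0.0689.

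Of 7 keratan sulfate enzymes, which build the chain that Lum, Fmod and Kera can carry, 3 passed in at least 1 comparison. Chst2, a sulfotransferase of that chain, fell with estradiol in WT tissue, at 26.8, 23.5 and 30.3 CPM against 44.3 and 45.8 CPM with placebo (log2 -0.75, SE 0.12, adjusted p = 0.00562 in edgeR). It was the 1 of 7 enzymes called there, and it passed in all 20 alternatives, without WT placebo 2 at -0.72. Under estradiol Chst2 was higher in KO than in WT, at 37.4, 32.7 and 40.9 CPM in KO against 26.8, 23.5 and 30.3 CPM in WT (log2 0.46, adjusted p = 0.0153 in edgeR), a call kept in 17 of 20 alternatives. B3gnt2, which extends the sugar chain, was higher with estradiol in KO, at 52.9, 64.0 and 46.6 CPM against 41.4, 40.4 and 38.1 CPM with placebo (log2 0.45, adjusted p = 0.0457 in edgeR). That call held in 8 of 20 alternatives and was lost in particular without KO estradiol 2 (log2 0.33, adjusted p = 0.161). Between KO and WT under estradiol B3gnt2 was higher (log2 0.57, adjusted p = 0.00557 in edgeR) and Chst5 lower (log2 -0.60, adjusted p = 0.0330 in edgeR). With Chst2 this made 2 of 7 higher and 1 lower, beside 7.27% of all genes higher and 11.5% in either direction. The B3gnt2 call held in 20 and the Chst5 call in 15 of 20 alternatives, the highest adjusted p for Chst5 being 0.124 without KO estradiol 3. No enzyme passed under placebo or in the interaction.

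Of the 22 enzymes of chondroitin and dermatan sulfate synthesis, which serve Dcn and Bgn, none passed in any of the 6 comparisons. None of the 11 fibrillar or SLRP-bound collagens passed either, and the collagens summed to 131495 to 171314 CPM with estradiol and 152872 to 201612 CPM with placebo in WT. Among 9 proteases that cleave SLRPs, Mmp2 was higher (2409 and 1900 CPM group means in KO and WT, log2 0.34, adjusted p = 0.0296 in edgeR) and Bmp1, which trims SLRP precursors, lower (log2 -0.28, adjusted p = 0.0377 in edgeR) in KO than in WT under estradiol. Egfr, a receptor that decorin binds, was higher there (log2 0.40, adjusted p = 0.0174 in edgeR). It was the 1 called of 15 receptors and ligands, beside 11.5% of all genes. Slc35b2, which carries the sulfate donor into the Golgi, was lower (log2 -0.32, adjusted p = 0.0449 in edgeR). It was the 1 called of 8 genes of sulfate and sugar supply, beside the same 11.5%. These calls held in 12, 11, 18 and 11 of 20 alternatives for Mmp2, Bmp1, Egfr and Slc35b2, with the highest adjusted p between 0.0562 and 0.165 on leaving out KO estradiol 2 or 3. In the average over pellets Mmp2 and B3gnt2 were also higher in KO and Slc35b2 lower, each near the threshold (adjusted p 0.0462, 0.0491 and 0.0430 in edgeR), and all 3 lost the call without WT placebo 2. In no other comparison did a gene of the protease, receptor or supply lists pass.

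The genes whose levels most resembled those of the called SLRPs were sought among the 9525 tested genes with a mean of at least 10 CPM. Likeness was the root mean square difference in log2 CPM, centred on each gene's mean, over the 11 libraries, and the result is a description. For Dcn the nearest were Gas1 (0.083), Mpp6 (0.091) and Tmem47 (0.10). Gas1, a membrane protein that binds hedgehog ligands, stood at 110 to 119 CPM in KO estradiol, 134 to 166 CPM in KO placebo, 85.6 to 87.0 CPM in WT estradiol and 106 and 116 CPM in WT placebo. For Lum the nearest were Ndn (0.078), Tmem47 (0.093) and Pear1 (0.094), so Tmem47 was near both. Tmem47 stood at 33.1 to 35.6 CPM in KO estradiol, 36.9 to 41.7 CPM in KO placebo, 23.7 to 26.5 CPM in WT estradiol and 34.3 and 38.7 CPM in WT placebo, with the WT estradiol libraries below all others.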

How the data were processed

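The authors deposited raw whole-number counts per gene symbol for the 11 libraries. Reads were handled with bcl2fastq 2.17 and TopHat on build mm9, per the submitters' processing notes. How reads were assigned to genes, and whether by strand, is not given in the sources used, so overlapping and antisense genes are uncertain. Tables of 6 pairwise comparisons were deposited as well. Per the file headers they hold log2 fold changes, p-values and adjusted p-values, beside a test score not printed here. 0 columns were left unmapped.

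In R 4.3.3, edgeR 4.0.16 kept 14531 genes (filterByExpr, minimum count 10, minimum total 15; 5218 symbols had no count), scaled libraries by TMM and fitted a robust quasi-likelihood model to the 4 groups over all libraries, with 7 residual degrees of freedom and a common biological coefficient of variation of 15.8%. Each comparison was adjusted by Benjamini-Hochberg over those genes and called under 0.05. SE is the absolute log2 fold change over the square root of F, and 95% intervals use the model's t distribution. Floors cover counting error only, as the reads carry no molecular identifiers. No libraries of a group matched within sampling noise. Exonic lengths came from GENCODE M21 and promoters from RefSeq.

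The alternatives were DESeq2 1.42.0, limma-voom (limma 3.58.1), size factors, upper-quartile scaling, TMM without Rn45s, no filter, fits to the compared groups alone, a threshold of 0.1, a replicate block and leaving out each library. Same-numbered KO libraries deviated together (correlations over genes 0.29, 0.39 and 0.14), which by a rule of over 0.1 in every pair pairs them; over all group pairs 7 of 15 same-number correlations were over 0.1. The script was tested on simulated data. The genes and lists were chosen with earlier results of these data known. Named genes are the 10 SLRPs, at most 4 called genes per list and comparison, and the 3 nearest genes of each called SLRP.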

Additional observations from a re-analysis of the deposited data

How the results depend on the processing

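The WT placebo group held 2 libraries, and Epyc had 1 to 20 counts per library. The number of SLRP genes called in WT for estradiol, 1, was 3 with DESeq2 and 3 at an adjusted p under 0.1 (Dcn, Lum and Ogn both times), 1 with only the WT groups (Ogn in place of Lum), and 0 to 2 on leaving out 1 library. For KO against WT under estradiol the 1 became 3 with DESeq2, 3 at an adjusted p under 0.1 (Dcn, Lum and Ogn both times), 2 with only the estradiol groups (Dcn and Ogn) and 1 to 2 on leaving out 1 library. The other comparisons kept their counts of 0, 0, 0 and 1 under all alternatives run; none that leaves out groups was run for the interaction or the average. The replicate block changed no SLRP call (1 in WT, 0 in KO, 0 in the interaction, 0 under placebo, 1 under estradiol and 1 in the average), while over all genes it gave 629 calls against 396 in KO, 301 against 167 in the interaction and 17 against 1 under placebo. Over all genes DESeq2 called 639 against 225 in WT, 936 in KO, 554 in the interaction, 38 under placebo and 1895 against 1069 in the average. An adjusted p under 0.1 gave 448, 714, 395, 1, 2512 and 2295 in the 6 comparisons, limma-voom 128 in WT and 69 in the interaction, and the KO groups alone 226. Leaving out 1 library gave 113 to 285 calls in WT, 105 to 505 in KO, 68 to 270 in the interaction, 1 to 50 under placebo, 867 to 1850 against 1667 under estradiol and 408 to 1711 in the average.

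The 40 single SLRP values were set against 792 alternative values. These include each main value read at the threshold of 0.1, which is no refit and cannot change sign. The SLRP values kept sign and side of the threshold in 736 of the 792. They lost or gained a call with the same sign in 8 and 15. The sign changed in 33 refits of 14 values that had not passed; the cause was not tested. On leaving out 1 library the WT estradiol differences ranged from -0.12 to 0.11 (Fmod), -0.25 to 0.19 (Prelp) and -1.56 to 0.030 (Kera). Those in KO ranged from -0.22 to 0.0030 (Fmod), -0.29 to 0.12 (Prelp), -0.14 to 0.24 (Kera) and -0.18 to 0.32 (Chad). KO against WT under placebo ranged from -0.070 to 0.099 (Lum), -0.31 to 0.27 (Ogn) and -0.98 to 0.61 (Kera). KO against WT under estradiol ranged from -0.12 to 0.12 (Bgn), -0.047 to 0.17 (Fmod), -0.20 to 0.092 (Aspn) and -0.28 to 0.13 (Prelp). Bgn there was also -0.018 with upper-quartile scaling, -0.0046 with limma-voom and -0.0011 with the replicate block.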
